A study of Mus musculus with 6 samples.

Results

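The hair keratins and keratin-associated proteins examined here are the protein-coding genes that make up most of the hair shaft and its inner root sheath. They were chosen by name: every protein-coding gene of the deposited table called Krtap followed by a number, and 16 keratin symbols of the shaft and the inner root sheath. Of the 16 keratin symbols 15 matched a row. The set held 72 of 54532 genes, or of 22046 protein-coding genes: 9 shaft keratins, 6 inner root sheath keratins and 57 Krtap genes from 27 families. RNA was sequenced from mouse ear skin at 3 months of age, in 3 control libraries (Ufl1 f/+ or Ufl1 f/f, no Cre) and 3 Ufl1 cKO libraries (Ufl1 f/f with KRT14Cre/+). Ufl1 encodes the ligase of UFMylation, the coupling of the ubiquitin-like protein UFM1 to other proteins. The keratin 14 promoter drives Cre in basal keratinocytes, and so in the precursors of every hair epithelial layer. No control carried Cre, so effects of Cre and of Ufl1 loss cannot be told apart. Which controls were f/+ and which f/f is not given in the labels, nor do they state that the libraries came from different animals. A p-value here therefore reflects only how these libraries spread. Where 3 values are given for a group, they stand in the order of the library numbers 1, 2 and 3.

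A hair is built only while its follicle grows. Matrix cells around the dermal papilla divide and move up into concentric layers: the shaft (medulla, cortex and cuticle) and, around it, the inner root sheath, which shapes the shaft and breaks down before the hair leaves the skin. Shaft cells fill with type I and type II hair keratins, which pair into filaments, and then with keratin-associated proteins, which bind those filaments together through disulfide bonds. The associated proteins are classed as high sulfur, ultra-high sulfur and high glycine-tyrosine. When growth ends the follicle shrinks and rests, and it makes these proteins again in the next cycle.

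The genes sit in a few clusters (deposited coordinates, mm10). On chromosome 11, between 99315516 and 100096241, lay 32 of them: 9 type I keratins and 23 Krtap genes. The 6 type II keratins lay on chromosome 15 between 101459061 and 101802346. Chromosome 16 held 24 Krtap genes between 88610705 and 89571183, chromosome 7 held 5, chromosome 10 held 3 and chromosome 1 held 2. RefSeq promoter sequences (GRCm38.p6, 250 bases before to 50 bases after the gene start) matched 61 of the 72 genes. A TATA box with the letters TATAAA on the sense strand, starting between 40 and 20 bases before the gene start, was present in 38 of the 61 (62.3%) against 1.99% of all 32851 promoters of the table. By class it was found in 4 of 6 root sheath keratins, 3 of 4 shaft keratins and 31 of 51 Krtap genes. The 100 bases before the start are shown for 8 genes described below, an abundant pair of each class plus Krtap3-2 and Krtap3-3, the Krtap genes whose values differed in pattern from the rest. They are read 5′ to 3′ on the strand of the gene, and capitals mark TATAAA.

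Krt71, chr15:101743098-101743197, minus strand: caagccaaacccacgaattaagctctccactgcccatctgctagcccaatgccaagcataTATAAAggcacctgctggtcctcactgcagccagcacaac
Krt25, chr11:99322952-99323051, minus strand: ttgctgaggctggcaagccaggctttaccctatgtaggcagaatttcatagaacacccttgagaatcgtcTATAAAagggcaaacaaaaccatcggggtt
Krt31, chr11:100050552-100050651, minus strand: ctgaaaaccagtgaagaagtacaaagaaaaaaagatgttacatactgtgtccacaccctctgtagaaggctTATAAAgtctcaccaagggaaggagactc
Krt33b, chr11:100029869-100029968, minus strand: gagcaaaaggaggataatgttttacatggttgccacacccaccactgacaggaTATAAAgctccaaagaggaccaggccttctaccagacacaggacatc
Krtap11-1, chr16:89571184-89571283, minus strand: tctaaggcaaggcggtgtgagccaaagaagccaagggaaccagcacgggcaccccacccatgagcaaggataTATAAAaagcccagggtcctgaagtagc
Krtap8-1, chr16:89487953-89488052, minus strand: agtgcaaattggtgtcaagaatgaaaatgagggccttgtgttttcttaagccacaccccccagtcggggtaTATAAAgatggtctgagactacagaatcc
Krtap3-2, chr11:99556854-99556953, minus strand: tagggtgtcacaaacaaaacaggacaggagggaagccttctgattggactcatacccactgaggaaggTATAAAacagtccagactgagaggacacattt
Krtap3-3, chr11:99550864-99550963, minus strand: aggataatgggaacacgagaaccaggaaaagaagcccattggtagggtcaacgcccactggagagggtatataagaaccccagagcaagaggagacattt

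In these letters TATAAA begins 40 bases before the start in Krt71, 30 in Krt25, 29 in Krt31 and Krtap8-1, 28 in Krtap11-1, 32 in Krtap3-2 and 47 in Krt33b, and Krtap3-3 has no TATAAA in its window. Only these exact letters were searched, so like sequences, such as the tatataag of Krtap3-3, were not counted. Over the full promoter and both strands, TATAAA was present in 85.2% of the matched genes and in 13.6% of all promoters. The letters CTTTGA, a core site of LEF/TCF factors, were present in 32.8% against 16%, including 4 of 4 shaft keratins with a promoter, and CTTTGT in 27.9% against 18.7%. CAATAAA and CGTAAAA, searched as sites of posterior Hox factors, were in none of the 61, against 4.6% and 0.764% of all promoters. A match is a description of the sequence and no measure of binding.

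**Figure D1:**
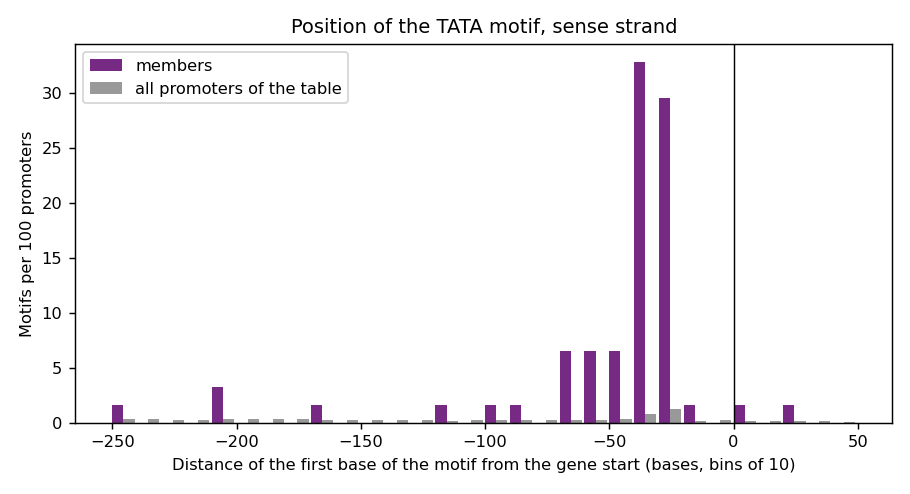
TATAAA motifs on the sense strand per 100 promoters (y axis) by distance of the motif's first base from the gene start in bins of 10 bases (x axis), for 61 hair genes (purple) and all 32851 promoters of the RefSeq table (grey). The hair genes have a peak between 40 and 20 bases before the start, where 62.3% of them and 1.99% of all promoters hold the motif.

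Total counts ranged from 17256339 to 20776539, and of 17318 genes that passed the filter on low counts 35 belonged to the set: all 15 keratins and 20 of the 57 Krtap genes. Of the 37 others, 34 had counts too low or in too few libraries to be tested, and Krtap13, Krtap20-2 and Krtap9-5 had 0 counts in every library. The filter keeps genes with enough counts in at least 3 libraries, so the tested genes are the more abundant ones and not a sample of the set. At this depth 0 counts allows up to 0.142 to 0.179 CPM (counts scaled to library size with TMM factors), from 3 counts per library, for counting error only. Ufl1 was at 57.9, 47.0 and 46.1 CPM in the controls against 34.9, 35.6 and 38.8 CPM in the cKO libraries. Epidermal keratins were abundant in every library, with Krt14 between 1160 and 4560 CPM. Mitochondrial transcripts took 4.59% of counts in control 1 and 2.28% to 2.97% in the others.

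No gene of the set passed the edgeR test between Ufl1 cKO and control ears, while the amount of hair transcripts differed many-fold between libraries of the same genotype. Summed over the 72 genes, the level was 277, 117 and 36.4 CPM in the controls and 291, 59.3 and 126 CPM in the cKO libraries. The highest control was 7.62 times the lowest (95% interval 7.06 to 8.24), and the highest cKO library 4.92 times the lowest (4.60 to 5.26). Control 1 and cKO 1 were the high libraries, control 3 and cKO 2 the low ones, and the genotypes overlapped. Counts above 0 were seen for 68, 49 and 20 of the 72 genes in the controls and for 68, 49 and 63 in the cKO libraries. These were not all the same genes: Krtap31-2 had no count in control 1 and Krtap6-3 none in cKO 1. In whole ear skin, fewer hair-forming cells and less RNA per cell cannot be told apart.

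**Figure D2:**
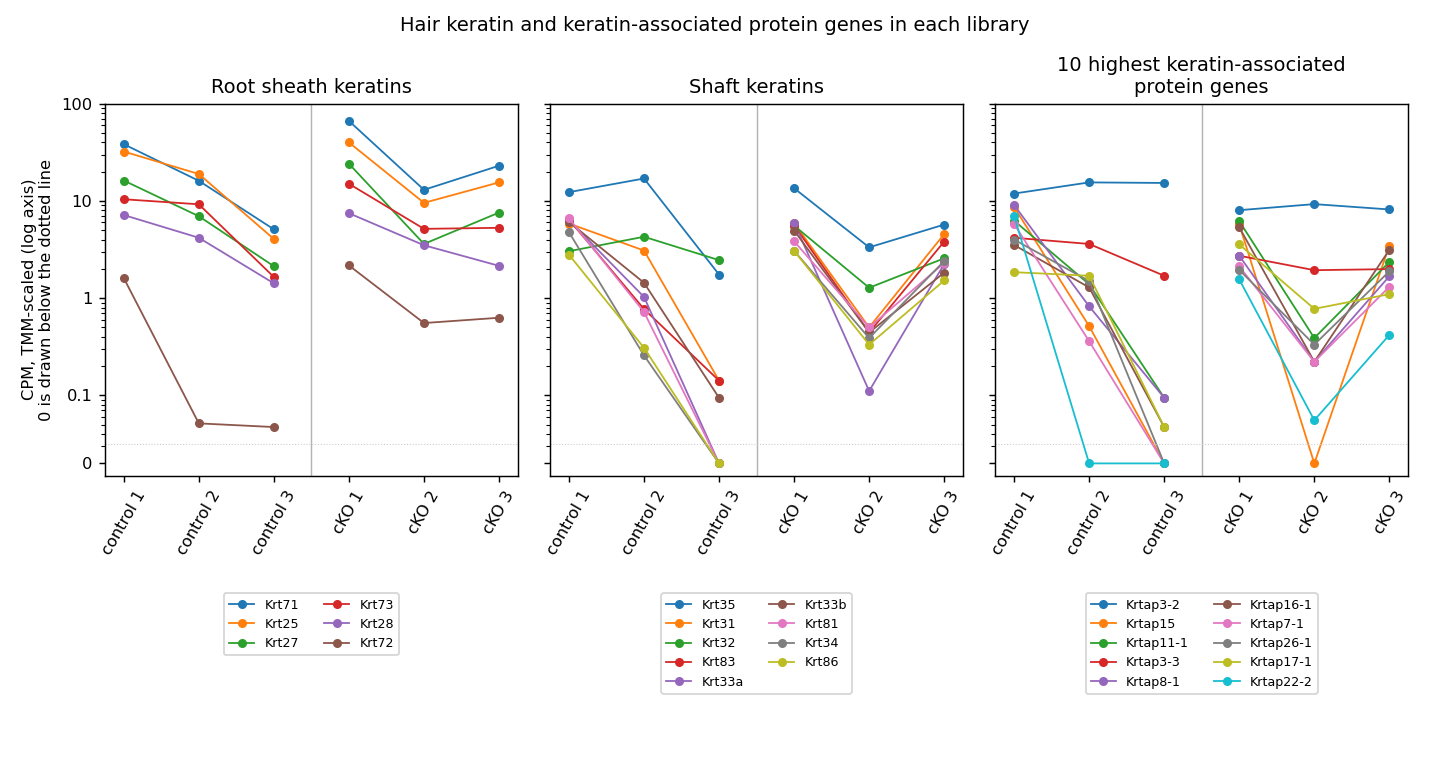
TMM-scaled CPM (log axis, 0 drawn below the dotted line) of the 6 root sheath keratins, 9 shaft keratins and 10 most abundant Krtap genes in each of the 6 libraries, with lines joining the values of 1 gene and no order implied among libraries. Nearly all lines are high in control 1 and cKO 1 and low in control 3 and cKO 2, while Krtap3-2 stays between 8.03 and 15.5 CPM.

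The inner root sheath keratins held the 3 most abundant keratins of the set per transcript length. Krt71, the main type II keratin of all 3 sheath layers, was at 38.3, 16.1 and 5.10 CPM in the controls against 66.4, 13.0 and 23.0 CPM in the cKO libraries. Its type I partner Krt25 was at 32.2, 18.9 and 4.06 CPM in the controls against 39.9, 9.55 and 15.5 CPM in the cKO libraries. For both genes cKO 1 was highest and control 3 lowest, and the groups overlapped. The log2 fold change (cKO over control) was 0.79 (SE 0.76, 95% interval -0.95 to 2.53) for Krt71 and 0.24 (SE 0.72, -1.42 to 1.90) for Krt25, each with an adjusted p of 0.997 in edgeR's quasi-likelihood test. Krt27, another type I sheath keratin, was at 16.2, 6.96 and 2.13 CPM in controls and 24.1, 3.61 and 7.59 CPM in the cKO libraries. Krt28, also type I, was at 7.16, 4.18 and 1.42 CPM in controls and 7.47, 3.50 and 2.15 CPM in the cKO libraries.

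The keratins of the sheath cuticle, the layer that faces the shaft, were at 3.57 FPKM (Krt73) and 0.42 FPKM (Krt72) per length, as means of the 6 libraries, with Krt28 between them at 2.63 FPKM. Krt73 was at 10.4, 9.23 and 1.65 CPM in the controls against 15, 5.16 and 5.29 CPM in the cKO libraries. Krt72 was at 1.61 CPM in control 1 and 2.17 CPM in cKO 1, at 0.0516 and 0.0473 CPM in controls 2 and 3, which are single counts, and at 0.555 and 0.629 CPM in cKO 2 and 3. Control 2 was thus well supplied with Krt73 transcripts and nearly without those of Krt72. All 6 sheath keratins had a fold change above 0, from 0.05 (Krt28) to 1.03 (Krt72, SE 1.13), with a median of 0.38. None passed the test (adjusted p of 0.997 for each in edgeR), and without cKO 1 the median was -0.49. Per length, Krt71 (12.2 FPKM, mean of the 6 libraries) and Krt25 (9.98 FPKM) were the most abundant keratins of the set, followed by Krt27 (6.46 FPKM) and Krt35 (3.69 FPKM).

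The shaft keratins fell into a pair with many counts in every library and 7 genes with at most 3 counts each in control 3. Krt35, a type I keratin made early, in the matrix and the young cortex and cuticle, was at 12.3, 17 and 1.75 CPM in the controls against 13.5, 3.33 and 5.71 CPM in the cKO libraries. Krt32, a type I keratin of the shaft cuticle, was at 3.04, 4.28 and 2.46 CPM in the controls against 5.57, 1.28 and 2.57 CPM in the cKO libraries. Control 2 was the highest control for both. Their fold changes were -0.46 (SE 0.76) and -0.05 (SE 0.51), each with an adjusted p of 0.997 in edgeR.

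The other 7 are keratins of the shaft cortex, which appear as the cells move up and harden. Krt31, a type I keratin, was at 5.85, 3.09 and 0.142 CPM in the controls against 5.91, 0.5 and 4.56 CPM in the cKO libraries. Krt33a was at 6.32, 1.03 and 0 CPM in the controls against 5.96, 0.111 and 2.25 CPM in the cKO libraries. Krt33b was at 6.08, 1.44 and 0.0945 CPM in the controls against 4.96, 0.444 and 1.83 CPM in the cKO libraries. All 3 were high in control 1 and cKO 1 and at or near 0 in control 3. Krt34 ranged from 0 CPM (control 3) to 4.77 CPM (control 1) over the 6 libraries. Of the type II keratins, Krt81 was at 6.62, 0.722 and 0 CPM in the controls against 3.85, 0.5 and 2.30 CPM in the cKO libraries. Krt83 was at 6.44, 0.773 and 0.142 CPM in the controls against 5.63, 0.444 and 3.82 CPM in the cKO libraries. Krt86 ranged from 0 CPM (control 3) to 3.07 CPM (cKO 1). For each of the 7 genes the 2 high libraries were control 1 and cKO 1, and cKO 3 was the third.

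Fold changes of the 9 shaft keratins ran from -0.46 (Krt35) to 0.70 (Krt86, SE 1.22), 5 above and 4 below 0, with a median of 0.20. None passed the test, and every adjusted p was 0.997 in edgeR. In a second, two-sided exact permutation test on log2 CPM the smallest p over the 15 keratins was 0.3 (Krt72), where 3 libraries against 3 cannot go below 0.1. Reads can be shared among these paralogs: 33.5% of the 75-base stretches of the Krt86 transcript, 30.7% of Krt81 and 24.7% of Krt34 also occur in another gene. The split of counts between such genes is uncertain.

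**Figure D3:**
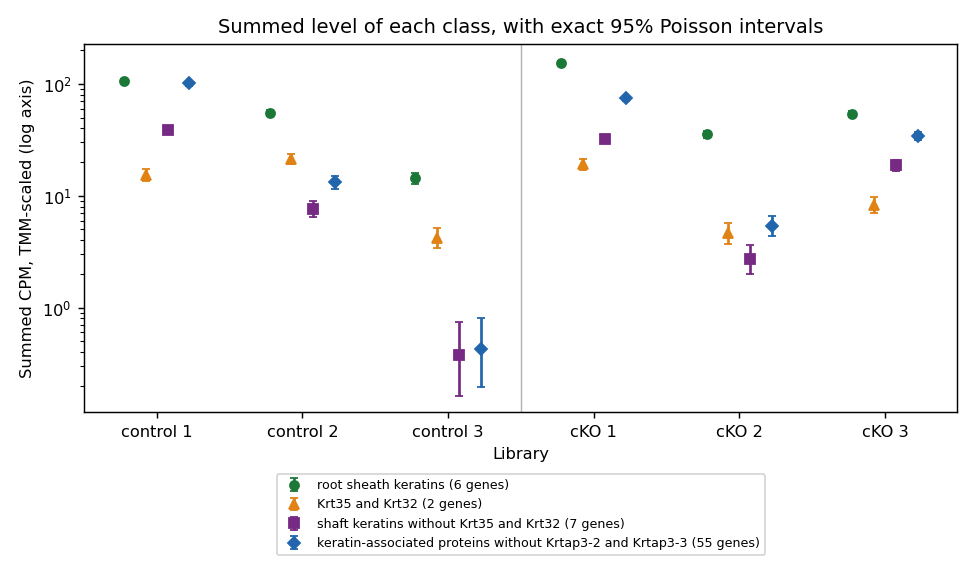
Summed TMM-scaled CPM (log axis) of 4 groups of hair genes in each library (x axis), with exact 95% Poisson intervals that cover counting error only. Krt35 with Krt32 stays between 4.21 and 21.3 CPM, while the other 7 shaft keratins go from 0.378 to 38.9 CPM and the Krtap genes without Krtap3-2 and Krtap3-3 from 0.425 to 101 CPM.

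Compared by library, shaft and root sheath keratins had the same highest and lowest libraries in each group, but not a fixed ratio. The shaft keratins summed to 54.3, 28.9 and 4.58 CPM in the controls and 51.5, 7.33 and 27.0 CPM in the cKO libraries. The root sheath keratins summed to 106, 55.4 and 14.4 CPM in controls and 155, 35.4 and 54.2 CPM in the cKO libraries. Shaft keratins thus took 33.9%, 34.3% and 24.1% of the keratin counts in controls and 24.9%, 17.2% and 33.2% in the cKO libraries. The lowest share, in cKO 2, had a Wilson 95% interval of 14.7% to 20%, and that in cKO 1 one of 23.6% to 26.3%, against 32.1% to 35.7% in control 1. The mean log2 ratio of shaft to root sheath sums was -1.18 ± 0.41 in controls and -1.62 ± 0.63 in the cKO libraries (SD, n = 3 each), a difference of -0.44. The groups overlapped, since cKO 3 lay above control 3.

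The make-up of the shaft transcripts differed between libraries as well. Krt35 and Krt32, a pair put together after their values were seen, took 28.4%, 73.6% and 91.8% of shaft keratin counts in the controls and 37.0%, 62.9% and 30.7% in the cKO libraries. Their sum differed 5.06-fold (4.02 to 6.44) between the highest and lowest control, against 103-fold (51.9 to 239) for the other 7 shaft keratins, whose sum in control 3 rests on 8 counts. In cKO libraries the ratios were 4.14 (3.25 to 5.32) and 11.9 (8.90 to 16.3). Without the pair the log2 ratio of shaft to root sheath sums was 0.69 higher in the cKO libraries, the opposite sign. That value leans on control 3, where the other 7 genes summed to 0.378 CPM, against 38.9 and 7.63 CPM in controls 1 and 2. It was not computed without control 3. The intervals given for ratios of highest to lowest library cover counting error in the 2 libraries and say nothing of the genotype.

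The 57 Krtap genes summed to 117, 32.3 and 17.4 CPM in the controls and to 84.8, 16.6 and 44.5 CPM in the cKO libraries. The highest control was 6.74 times the lowest (6.02 to 7.55) and the highest cKO library 5.11 times the lowest (4.51 to 5.80), ratios below those of the shaft keratins (11.8 and 7.03). Krtap3-2 and Krtap3-3 made up most of the sum in control 3. Without this pair, set aside after their values were seen, 55 genes summed to 101, 13.2 and 0.425 CPM in the controls and to 74.1, 5.38 and 34.4 CPM in the cKO libraries. In control 3 that sum is 9 counts over 55 genes. The highest control was 238 times the lowest (125 to 521) and the highest cKO library 13.8 times the lowest (11.2 to 17.1). Of the counts of these 55 genes and the shaft keratins together, the 55 took 65.1%, 31.3% and 8.49% in controls. In the cKO libraries they took 59.0%, 42.4% and 56.0%. In each group the library with the lowest Krtap sum also had the lowest share.

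Krtap11-1, a sulfur-rich protein of the cortex, was at 6.26, 1.39 and 0.0945 CPM in the controls against 6.19, 0.389 and 2.36 CPM in the cKO libraries. Krtap15 was at 8.65, 0.516 and 0 CPM in the controls against 5.74, 0 and 3.46 CPM in the cKO libraries. It had the largest spread within a group among the tested Krtap genes and overlaps Krtap14 on the opposite strand, so reads of the pair may be mixed. Krtap16-1 was at 3.52, 1.29 and 0.0473 CPM in the controls against 5.35, 0.222 and 3.14 CPM in the cKO libraries. Krtap26-1 was at 4, 1.5 and 0 CPM in the controls against 1.95, 0.333 and 1.89 CPM in the cKO libraries. Control 3 had at most 2 counts for each of these 4 genes. Among genes of cuticle families, Krtap17-1 was at 1.85, 1.70 and 0.0473 CPM in the controls against 3.57, 0.777 and 1.10 CPM in the cKO libraries. Krtap10-4 was at 1.49, 0.567 and 0 CPM in the controls against 2.51, 0.444 and 1.20 CPM in the cKO libraries. Its gene overlaps Tspear and Gm2696 on the opposite strand and 27.3% of its 75-base stretches occur in other genes, so its counts are uncertain. For Krtap17-1 control 2 was close to control 1, unlike for the other Krtap genes just named.

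The 15 genes of the high glycine-tyrosine families (Krtap6, 7, 8, 19, 20, 21 and 22, which encode small proteins of the cortex) separated control 1 from cKO 1, although both were rich in hair transcripts. This grouping too was made after values were seen. It went by gene name and was not checked against protein composition. Krtap8-1 was at 9.07, 0.825 and 0.0945 CPM in the controls against 2.73, 0.222 and 1.68 CPM in the cKO libraries. Krtap7-1 was at 5.79, 0.361 and 0 CPM in the controls against 2.12, 0.222 and 1.31 CPM in the cKO libraries. Krtap22-2, too sparse to be tested, was at 6.98, 0 and 0 CPM in the controls against 1.56, 0.0555 and 0.419 CPM in the cKO libraries. In each case control 1 stood above the other 5 libraries, and the other 2 controls lay below cKO 1 and cKO 3.

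Over the families the sum was 40.4 CPM (37.4 to 43.5, exact Poisson) in control 1 and 13.5 CPM (11.9 to 15.4) in cKO 1. The 40 other Krtap genes, again without Krtap3-2 and Krtap3-3, were at 60.7 (57.0 to 64.6) and 60.5 CPM (57.0 to 64.2). Control 1 was above cKO 1 in 12 of 14 high glycine-tyrosine genes with counts in either, and in 19 of 38 other Krtap genes. Of the Krtap counts without Krtap3-2 and Krtap3-3, the families took 39.9%, 13.7% and 22.2% in the controls. In the cKO libraries they took 18.3%, 17.5% and 18.4%. The value in control 3 is 2 of 9 counts. Control 2 lay below all cKO libraries and control 1 above them, so the genotypes overlapped.

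Krtap3-2 did not follow the other Krtap genes. This high-sulfur gene was at 11.9, 15.5 and 15.3 CPM in the controls against 8.03, 9.27 and 8.17 CPM in the cKO libraries. Every cKO library was below every control, with means of 8.49 ± 0.681 and 14.2 ± 2.04 CPM (SD, n = 3 each), while control 3, the library poorest in other hair transcripts, was next to the highest. The log2 fold change was -0.74 (SE 0.19, 95% interval -1.18 to -0.30), between -0.86 and -0.68 when any library was left out. It did not pass the test over 17318 genes: the adjusted p was 0.65 in edgeR and 0.0754 in DESeq2, and the exact permutation p was 0.1, the smallest 3 against 3 allows. Its SD within a group was 0.17 on the log2 scale, at the 25.6th percentile of all genes tested. Krtap3-3, its neighbour, was at 4.18, 3.61 and 1.70 CPM in the controls against 2.73, 1.94 and 1.99 CPM in the cKO libraries, which overlap, with a fold change of -0.50 (SE 0.39, adjusted p of 0.997 in edgeR). Krtap3-1, the third gene of the family, named here after its values were seen, followed the other Krtap genes: 2.03, 0.103 and 0 CPM in controls and 2.45, 0.0555 and 0.943 CPM in the cKO libraries. Of the 75-base stretches of their transcripts, 27.1% for Krtap3-2 and 39.1% for Krtap3-3 also occur in another gene of the family, so reads could be split among them. Per length Krtap3-2 was at 10.9 FPKM (mean of the 6 libraries) and Krtap3-3 at 3.63 FPKM.

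**Figure D4:**
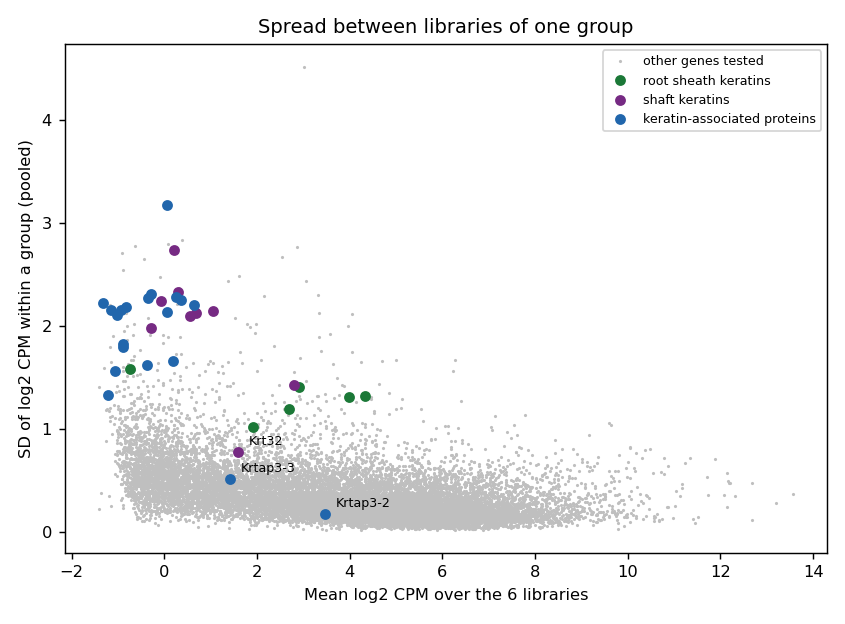
Pooled SD of log2 CPM within a group (y axis) against mean log2 CPM over the 6 libraries (x axis) for all 17318 genes tested (grey), with root sheath keratins in green, shaft keratins in purple and Krtap genes in blue. The median of the 35 hair genes is 2.09 against 0.27 for all genes, and Krtap3-2 (0.17) lies within the grey cloud.

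Libraries of one group differed more in most hair genes than in most other genes. The median SD of log2 CPM within a group was 2.09 over the 35 tested genes, 2.12 for shaft keratins, 1.32 for root sheath keratins and 2.14 for Krtap genes. It was 0.27 over all genes tested and 0.39 over the 8616 genes within the same range of mean level. Of the 35 genes, 32 were at or above the 95th percentile of all genes. The exceptions were Krtap3-2, Krtap3-3 and Krt32. Control 1 was the highest library for 18 of the 35, cKO 1 for 15 and control 2 for 2 (Krt35 and Krtap3-2). Control 3 was the only lowest library for 28 and tied for lowest in 5 more. The remaining 2 were Krtap3-2, lowest in cKO 1, and Krt32, lowest in cKO 2.

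Between genotypes, edgeR called 0 of the 35 genes at an adjusted p of 0.05, where it called 0.0173% of all genes tested (3 of 17318; 0.0115% higher and 0.00577% lower in cKO). DESeq2 also called 0, against 0.526% of all genes. Limma-voom called 0 of all 17318 genes, so its 0 in the set says nothing of the hair genes. At an unadjusted p of 0.05 edgeR had 1 gene, Krtap3-2, against 5.33% of all genes. Groups did not overlap for the same 1 gene, lower in cKO, where 4.81% of all genes tested did so in that direction, and for 0 genes higher in cKO (5.73% of all). A single gene among 35 is not above these background shares. In the authors' deposited table none of the 68 genes of the set with an adjusted p was below 0.05, while 58 other genes were higher and 21 lower.

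The median fold change was 0.25 over the 35 genes (23 above 0 and 12 below), 0.20 for shaft keratins, 0.38 for root sheath keratins and 0.24 for Krtap genes, against -0.01 for all genes tested. The median SE was 1.14 against 0.22. With limma-voom the medians were 1.15 over the set, 1.32 for shaft keratins, 0.52 for root sheath keratins and 1.21 for Krtap genes. Their size thus depends on the tool. Limma-voom called 0 genes, in the set and over all genes tested. The largest fold changes in either direction were Krtap10-4 (1.05, SE 1.03, with the doubt on its counts given above) and Krt72 above 0, and Krtap8-1 (-1.09, SE 1.28) and Krtap19-3 (-0.94, SE 1.52) below. Krtap8-1 and Krtap19-3 were above 0 with limma-voom (0.26 and 1.56). All 4 intervals include 0, as do those of the other tested genes except Krtap3-2. The interval reached beyond a 4-fold difference in both directions for 20 of the 35 genes, so differences of that size were not detectable for them. The median depended on single libraries, and the filter was applied again each time, so the genes tested changed too. It was 1.97 without control 1 (36 genes of the set tested), 0.63 without cKO 2 (53) and -0.11 without control 2 (52). It was -0.36 without control 3 (52) and -0.44 without cKO 1 (35). Without control 1, 9 of the 36 were under an unadjusted p of 0.05 in edgeR, a share not computed over all genes. That fit called 0 of all 17827 genes.

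**Figure D5:**
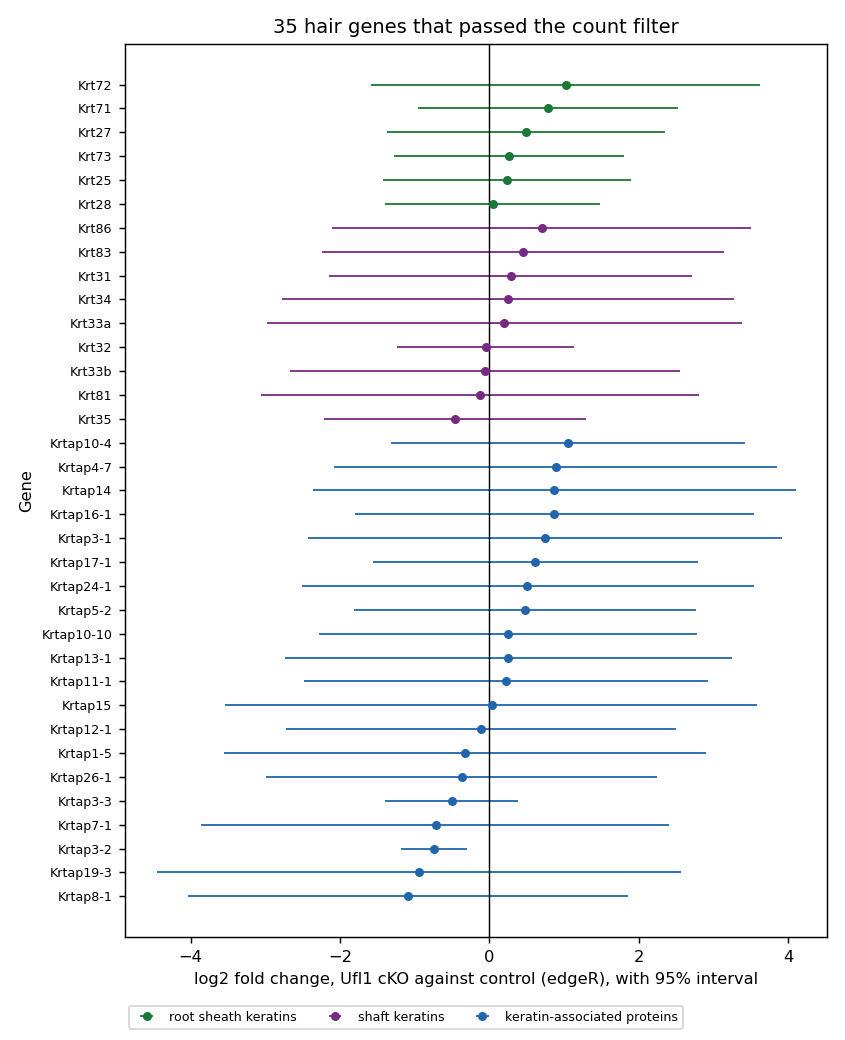
Log2 fold change of Ufl1 cKO over control with its 95% interval (x axis, edgeR) for the 35 tested hair genes (y axis), coloured by class. Every interval except that of Krtap3-2 (-1.18 to -0.30) crosses 0.

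Other genes of the hair-forming layers were taken from lists. Of the other hair, companion layer and nail keratins 5 of 10 were tested and 0 called, with a median fold change of 0.89. Krt82, a type II keratin of the shaft cuticle, was at 1.49, 1.03 and 0 CPM in the controls against 3.12, 0.222 and 1.26 CPM in the cKO libraries, the order seen for the shaft keratins in both groups. Krt26, of the sheath cuticle, was at 1.79 CPM in control 1 and 2.51 CPM in cKO 1 and below 1 CPM in the others. Krt84, a keratin of nail and tongue, was at 9.31 CPM in cKO 1 and between 0.662 and 2.32 CPM elsewhere, so its high library was cKO 1 alone. Krt75, of the companion layer next to the sheath, ranged only from 4.77 to 15.9 CPM. Among other inner root sheath genes 6 of 7 were tested and 0 called. Tgm3, a cross-linking enzyme of sheath and epidermis, was at 33.4, 85.6 and 42.0 CPM in the controls against 63.0, 56.3 and 77.6 CPM in the cKO libraries, without the pattern of the sheath keratins. Tchh, which encodes the sheath protein trichohyalin, did share their order of libraries, at 46.3, 18.1 and 7.75 CPM in the controls against 59.5, 15.1 and 25.2 CPM in the cKO libraries. So did Padi3, an enzyme that modifies trichohyalin and is also on the list of shaft genes, at levels from 0.567 CPM (control 3) to 3.46 CPM (cKO 1). Tchh and Padi3 are named after their values were seen.

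Of 13 other shaft and cuticle genes 12 were tested and 0 called, with a median fold change of -0.30. In all 3 of these lists DESeq2 also called 0 genes, and edgeR had 0 at an unadjusted p of 0.05. Gprc5d, a membrane receptor of hard keratin-forming cells, was at 3.76, 0.876 and 0.0945 CPM in the controls against 1.17, 0.111 and 0.419 CPM in the cKO libraries. Hephl1, a copper-dependent oxidase of the hair, was at 27.0, 40.7 and 33.5 CPM in the controls against 29.5, 21.1 and 24.3 CPM in the cKO libraries (-0.43, SE 0.20, adjusted p of 0.937 in edgeR). The first followed the shaft keratins and the second did not.

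Taken as lists, genes that act before the hair hardens did not share the range of the hair proteins. For each list a score per library was taken: log2 CPM, centred on each gene's average, was averaged over the list. The shaft keratins scored 1.74, -0.14 and -2.65 in the controls and 1.64, -1.35 and 0.76 in the cKO libraries. Transcription factors of shaft and matrix scored between -0.20 and 0.32, signals of the matrix and growth phase between -0.11 and 0.23, dermal papilla genes between -0.29 and 0.25, and outer root sheath, bulge and upper follicle genes between -0.18 and 0.20. Cell cycle genes scored between -0.48 (control 1) and 0.52 (control 2). Shh, Bmp8a, Fgf5, Dkk4 and Foxe1 had too few counts to be tested and are not in the scores. In whole ear skin the scores cannot tell growing follicles from other cells. EdgeR called 0 genes in these 5 lists, and DESeq2 called 1, in the list of outer root sheath and bulge genes. Over all genes tested the shares were 0.0173% and 0.526%. At an unadjusted p of 0.05 edgeR had 1 transcription factor and 2 signals, all lower in cKO, and 2 higher and 2 lower outer root sheath and bulge genes. Lgr5 is on both of the last lists and is counted in each. Of all genes tested 5.33% were under that p in edgeR. In the bulge list Krt15 was at 445, 1380 and 730 CPM in controls and 213, 247 and 374 CPM in the cKO libraries (-1.61, adjusted p of 0.65 in edgeR). Krt17 was at 122, 187 and 188 CPM in controls and 382, 240 and 288 CPM in the cKO libraries (0.87, adjusted p of 0.65 in edgeR). Such opposite shifts offset each other in the score.

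Foxq1, a transcription factor needed for the medulla of the shaft, was at 19.6, 43.6 and 26.7 CPM in the controls against 17.4, 15.9 and 18.3 CPM in the cKO libraries. Its groups did not overlap (-0.80, SE 0.28, adjusted p of 0.857 in edgeR). Msx2, which acts in the matrix, was at 9.66, 18.3 and 12.6 CPM in controls and 9.64, 8.22 and 10.3 CPM in the cKO libraries (-0.53, SE 0.26, adjusted p of 0.953 in edgeR). Of 18 tested signals 15 had a fold change below 0 and 3 above, with a median of -0.21. Of all genes tested 9033 of 17318 were below 0, with a median of -0.01. The difference of the list from all genes was not tested. Lgr5, a receptor of bulge and hair germ stem cells, was at 13.8, 15.8 and 11.4 CPM in the controls against 9.98, 8.49 and 7.18 CPM in the cKO libraries (-0.68, SE 0.21, adjusted p of 0.811 in edgeR). Wnt10b, a ligand that promotes growth onset, was at 7.10, 9.38 and 5.48 CPM in the controls against 4.90, 4.94 and 3.98 CPM in the cKO libraries (-0.67, SE 0.27, adjusted p of 0.894 in edgeR). For Lgr5 and Wnt10b, as for Krtap3-2, every cKO library was below every control, as for 4.81% of all genes tested. Both were named for the smallest p of their list.

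Markers of other cells moved between libraries as well, and their part in the results was not tested. Interfollicular epidermis (8 of 8 genes tested) scored -0.75, 0.51 and -0.34 in the controls and 0.46, -0.06 and 0.18 in the cKO libraries. Of the libraries rich in hair transcripts, control 1 was thus lowest of all and cKO 1 next to the highest. Neutrophil genes (5 of 6 tested) scored 0.25, -2.22 and -1.21 in controls and 2.92, -0.15 and 0.41 in the cKO libraries, highest in cKO 1. Melanocyte genes (8 of 8 tested) scored between -1.30 and -0.75 in controls and between 0.75 and 1.35 in the cKO libraries. EdgeR called 1 of them, higher in cKO, and DESeq2 called 8, against 0.0173% and 0.526% of all genes. Tyrp1, a pigment enzyme, was at 13.6, 15.8 and 14.4 CPM in the controls against 55.6, 49.6 and 72.4 CPM in the cKO libraries. For 8 of 8 pigment genes every cKO library was above every control, as for 5.73% of all genes tested, whereas no hair keratin separated the groups. Krt6b, a stress and nail keratin, was at 9.90, 0.0516 and 0.189 CPM in the controls against 384, 37.8 and 21.1 CPM in the cKO libraries (5.50, SE 1.68, adjusted p of 0.811 in edgeR).

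Markers of sebaceous gland (scores from -0.51 to 0.68), skeletal muscle (-0.89 to 0.65), cartilage (-1.06 to 0.48), fibroblasts (-1 to 0.54), adipocytes (-0.59 to 0.64) and T cells (-0.48 to 0.85) showed no like order. None of these 6 lists had control 3 and cKO 2 as its 2 lowest libraries.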

How the data were processed

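Total RNA was extracted with TRIzol and libraries were made with the NEBNext Ultra kit, per the labels' protocols. The submitters' processing notes name HISAT2, HTSeq and the build mm10. For the strand setting, nothing is given in the sources used here. The authors deposited raw whole-number counts for every gene and library and FPKM values, per the file headers. The authors' normalized mean count per group (a signal value), log2 fold changes and p-values were also deposited, with no test named. Counts of all genes were filtered with filterByExpr, TMM-scaled and tested with edgeR 4.0.16 (robust quasi-likelihood, no covariates, R 4.3.3, two-sided, Benjamini-Hochberg over 17318 genes, threshold 0.05). SE was computed from the fold change and the F statistic. Log2 CPM used a prior count of 2.

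The set and the lists were chosen with earlier results of these data known. Named genes were the 15 keratins, the 10 Krtap genes with the highest mean CPM, up to 4 genes of the set per direction and up to 4 per other list with the smallest p, and Ufl1. Others are said to be named after their values were seen, or are the only members of a small count. Sums have exact Poisson and shares Wilson 95% intervals, and ratios of 2 libraries exact binomial ones. Sequence stretches of 75 bases were compared between all transcripts of the reference. The fit was tested on simulated data. Alternatives were RLE, upper-quartile and total count scaling, 2 other filters, DESeq2 1.42.0, limma 3.58.1 (voom, and trend on log2(FPKM + 1)), edgeR without robust estimates, a block for the replicate number, leaving out each library, FPKM sums and a prior count of 5. Protein composition was not analysed here.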

Additional observations from a re-analysis of the deposited data

How the results depend on the processing

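No gene of the set was called by edgeR under any scaling, filter or left-out library, nor by DESeq2, limma-voom, limma-trend or without robust estimates. Limma-voom and limma-trend called 0 of all genes too, so their 0 in the set says nothing of the hair genes. The same holds for edgeR without control 1, control 3, cKO 1, cKO 2 or cKO 3. Without control 2 edgeR called 4 of 17718 genes. Whether same-numbered libraries were paired is not given in the labels. Deviations of same-numbered libraries from their group means correlated at 0.22, -0.04 and -0.04. The value for control 1 and cKO 1 was the highest of all pairs, but not every library correlated best with its own number. With 3 libraries per group these values cannot decide whether there was a pairing. With the replicate number as a block 0 genes of the set were called, and 12 of all genes against 3 without it. At an unadjusted p of 0.05 edgeR had 2 genes of the set with the block and 1 without. The share over all genes was not computed for the block fit, so the 2 cannot be set against a background. The median fold change of the set with the block was 0.48. Sampling of few counts limits the Krtap genes most, since 37 of the set's 72 genes were not tested.

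Leaving out 1 library moved the median fold change from -0.44 to 1.97 over the set, from -0.76 to 2.43 for shaft keratins, from -0.49 to 1.14 for root sheath keratins and from -0.47 to 2.13 for Krtap genes. The filter was applied again in each of these fits, so the genes changed too: between 35 and 53 of the set were tested. The difference in log2 sums ranged from -0.87 to 0.95 for shaft keratins, from -0.20 to 1.24 for root sheath keratins and from -0.63 to 0.74 for Krtap genes, and that of the shaft to root sheath ratio from -0.75 to -0.11. Without Krtap3-2 and Krtap3-3 the Krtap difference was 1.53, and without Krt35 and Krt32 the ratio differed by 0.69, both chosen after seeing the data. Both values lean on control 3, where the remaining Krtap genes had 9 counts and the remaining shaft keratins 8. Neither was computed without control 3. Limma-voom gave a median fold change of 1.15 over the set. The median SD within a group was 1.53 with a prior count of 5. The cause of these shifts was not tested.

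Of 413 fold changes of the named genes under other settings, 55 changed sign, 41 of them with 1 library left out. The ranges over left-out libraries were, for root sheath keratins, -0.13 to 1.69 (Krt71), -0.55 to 0.91 (Krt25), -0.58 to 1.37 (Krt27), -0.58 to 0.64 (Krt28) and -0.44 to 0.64 (Krt73). For shaft keratins they were -1.19 to 0.10 (Krt35), -0.76 to 0.32 (Krt32), -0.29 to 1.18 (Krt31), -1.02 to 2.43 (Krt33a), -1.13 to 1.65 (Krt33b), -0.35 to 3.90 (Krt34), -0.77 to 2.62 (Krt81), -0.17 to 2.85 (Krt83) and -0.12 to 3.39 (Krt86). For Krtap genes they were -0.88 to 2.01 (Krtap11-1), -0.79 to 3.57 (Krtap15), -0.33 to 1.06 (Krtap17-1), -1.55 to 6.30 (Krtap19-3), -0.97 to 0.91 (Krtap26-1), -1.38 to 2.74 (Krtap7-1) and -1.78 to 1.75 (Krtap8-1). Krt72, Krtap10-4, Krtap16-1, Krtap3-2 and Krtap3-3 kept their sign when any 1 library was left out. Limma-voom turned Krt33b (0.80), Krt81 (1.94), Krtap8-1 (0.26), Krtap7-1 (1.41), Krtap26-1 (1.23) and Krtap19-3 (1.56) positive. Limma-trend on FPKM did so for Krt33b (0.07), Krt81 (0.13) and Krtap7-1 (0.06), and the replicate block for Krt33b (0.27), Krt81 (0.64), Krtap7-1 (0.22) and Krtap19-3 (0.18). Upper-quartile scaling put Krtap15 at -0.02.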
